A study of Rattus norvegicus with 6 samples.

Results

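Glycolysis, lactate and glucose transport genes were followed in the rat sciatic nerve after a crush injury. The 33 gene symbols of this set covered glucose carriers, the enzymes from hexokinase to pyruvate kinase, lactate dehydrogenases, monocarboxylate carriers, and pyruvate dehydrogenase with its kinases, and every gene entry that bore a symbol of the set was taken, whatever its counts. Of the 33 symbols, 32 had an entry among the 30957 genes of the deposited table, and Pdha1 had none under that symbol. There were 34 entries, because Pkm and Pfkfb4 were each listed at 2 loci. A filter on low counts kept 32 of these entries for 31 symbols, and 15195 of all genes. The entries that did not pass were Slc2a3, with 0 to 2 fragments in a library, and the second entry of Pfkfb4, with 0 or 1.

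The rats were Sprague-Dawley animals of 1 month, and each of the 6 rats gave 1 RNA-seq library of sciatic nerve tissue. The groups were an uninjured control (control), nerves 4 days after the crush (D4) and nerves 7 days after it (D7), with 2 rats in each and libraries named a and b. The labels call the control animals normal, whereas the methods of the study describe an operation without clamping. The nerves were whole tissue, so that fewer cells of a type and less RNA per cell cannot be told apart.

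Glycolysis splits glucose into pyruvate in the cytosol. Hexokinase traps the sugar, phosphofructokinase sets the main control point under the influence of fructose 2,6-bisphosphate, and lactate dehydrogenase converts pyruvate and lactate into each other. In nerve, Schwann cells wrap the axon and are known to take up glucose and to pass lactate to it through monocarboxylate transporters, while pyruvate dehydrogenase kinases hold pyruvate back from the mitochondrial oxidation.

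Levels are given as TMM-scaled CPM, which are fragment counts scaled to the size of the library after a correction for library composition (TMM factors), in the order library a and library b. The libraries held 18727255 to 25350886 fragments on genes. The 10 most abundant genes took 16.1% and 17.6% of them in control and 8.55% to 9.41% in the injured nerves. The TMM factors ran from 0.863 to 1.08. Without these factors the median log2 fold change over all genes tested was 0.25 at D4 and 0.31 at D7, against -0.04 and 0.01 with them, so that each fold change depends on this scaling. DEGs are genes with an adjusted p-value under 0.05 that changed at least 2-fold, and "rose" or "fell" is used below for an adjusted p-value under 0.05. The D4 and D7 comparisons share the control libraries.

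In the control vs D4 group, 10 of the 32 entries tested were DEGs. The 5 upregulated were Hk3, Pfkfb4, Pgk1, Pgam1 and Slc16a3, beside 11.2% of all genes tested that were upregulated. The 5 downregulated were Slc2a4, Pfkm, Aldoc, Ldhb and Pdk1, beside 10.7% of all genes. With no fold threshold, 9 entries rose and 12 fell, against 21.6% and 22.6% of all genes. The median log2 fold change of the 32 entries was -0.14, and that of all genes -0.04. Without TMM factors the split was 6 upregulated and 4 downregulated, and 11 rose and 7 fell.

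In the control vs D7 group, 7 entries were DEGs. Hk3 and Pfkfb4 were the 2 upregulated, with 9.83% of all genes upregulated, and Slc2a1, Pfkm, Aldoc, Slc16a1 and Pdk1 were the 5 downregulated, with 9.02% of all genes downregulated. With no fold threshold, 4 entries rose and 14 fell, against 19.5% and 18.1% of all genes. The median log2 fold change of the entries was -0.57, and that of all genes 0.01. Without TMM factors there were 3 upregulated and 3 downregulated entries, with 7 that rose and 9 that fell. Hk3, Pfkfb4, Pfkm, Aldoc and Pdk1 were DEGs at both days, each with the same direction at D4 and D7. Both comparisons use the same control libraries, so the shared direction is not an independent result. The share of all genes that were DEGs at both days is not given here.

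The 2 days were also compared with each other. Pdk4, lower at D7, was the 1 downregulated entry, where 0.494% of all genes were downregulated and 1.68% upregulated. With no fold threshold, 9 entries fell from D4 to D7 and 1 rose, while 1.79% of all genes fell and 2.88% rose. The 9 were Hk1, Gapdh, Pgk1, Pgam1, Eno1, both entries of Pkm, Ldha and Pdk4, and the 1 that rose was Pfkm. Without TMM factors 8 of the 9 were lower still by this test, and the chromosome 8 entry of Pkm was not.

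**Figure D1:**
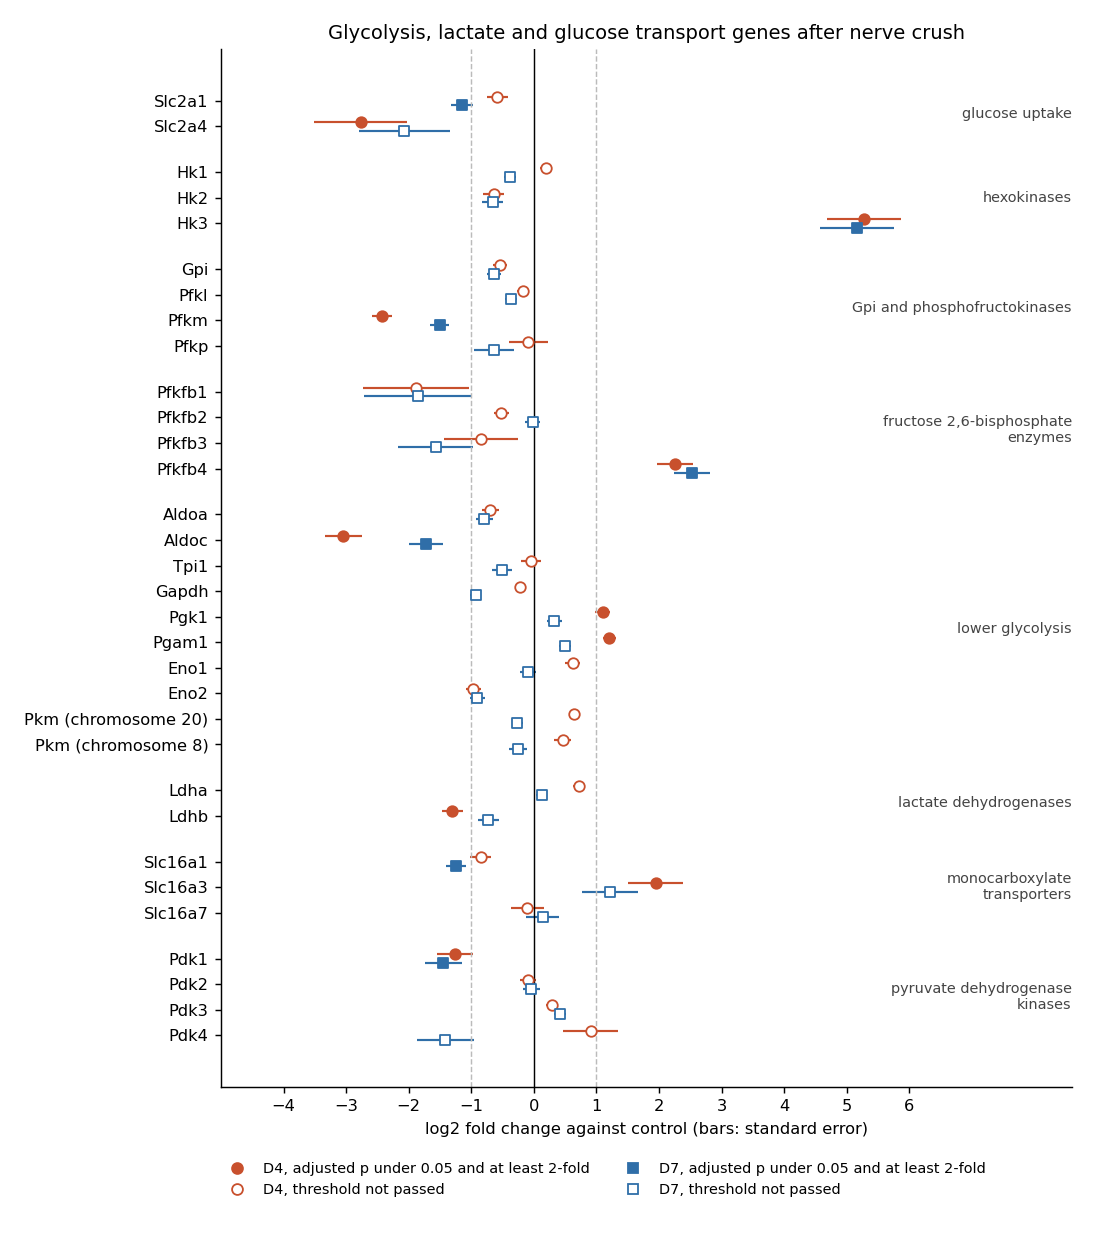
Log2 fold changes against control with standard errors for the 32 entries tested, ordered by role, with D4 as circles and D7 as squares. Filled symbols have an adjusted p-value under 0.05 and a change of at least 2-fold, the dashed lines mark 2-fold, and Hk3 stands furthest right at 5.27 and 5.17 while Aldoc stands furthest left at -3.05 on D4.

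Of the glucose carriers, Slc2a1 fell at both days and Slc2a4 at D4. Slc2a1 (GLUT1, the basal glucose transporter; chr5:138154673-138182897 of Rnor_6.0) measured 306 and 217 CPM in control, 183 and 166 at D4, and 119.9 and 116 at D7. It fell at D4 by 0.58 on the log2 scale (SE 0.17, adjusted p = 0.0325) and was downregulated 2.22-fold at D7 (log2 fold change -1.15, SE 0.17, adjusted p = 0.00388). The 3 groups did not overlap, and D7 against D4 was -0.56 (adjusted p = 0.11). The D7 change of Slc2a1 was under 2-fold without control a (-0.88, adjusted p = 0.0048) and without TMM factors (-0.85, adjusted p = 0.00708), and without these factors its D4 change did not pass the test.

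Slc2a4 (GLUT4, the insulin-responsive transporter of muscle and fat; chr10:56552983-56558487) measured 52.7 and 79.2 CPM in control, 11.7 and 7.65 at D4, and 4.65 and 26.8 at D7. It was downregulated 6.81-fold at D4 (log2 fold change -2.77, SE 0.75, adjusted p = 0.027) and was at -2.07 at D7 (SE 0.73, adjusted p = 0.0681). The D7 libraries lay on both sides of the D4 libraries, and the D7 change was -3.82 without D7 b. The D4 call was lost without control b (adjusted p = 0.0808), without D4 a (0.1) and without D4 b (0.15). Slc2a3 (GLUT3, the neuronal transporter) held 0 and 1 fragments in control, 1 and 2 at D4, and 1 and 1 at D7, which is under the floor of 3 fragments in each library, and no fold was computed.

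Among the hexokinases, which phosphorylate glucose on entry, Hk3 was upregulated and the other 2 were not DEGs. Hk3 (chr17:10137974-10152956) is the isoform known from white blood cells. It measured 0.258 and 0.603 CPM in control, from 5 and 10 fragments, then 22.5 and 10.4 at D4, and 18.3 and 12.4 at D7. The rise was 38.7-fold at D4 (log2 fold change 5.27, SE 0.59, adjusted p = 0.00111) and 36.1-fold at D7 (5.17, SE 0.59, adjusted p = 0.00162). The injured libraries lay far above the control libraries, and the ranges of D4 and D7 overlapped.

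Hk1, the housekeeping isoform, measured 124 and 111 CPM in control, 133 and 135 at D4, and 92.4 and 88.1 at D7. Its fall at D7 against control (-0.38, SE 0.09, adjusted p = 0.0225) and against D4 (-0.57, SE 0.09, adjusted p = 0.0334) passed the test, the change at D4 did not (0.19, adjusted p = 0.143). Hk2, the inducible isoform of muscle and fat, went from 107 and 115 CPM in control to 83.2 and 59.4 at D4 and 69.3 and 71.5 at D7. It fell at both days, by 0.64 (adjusted p = 0.0227) and 0.66 (adjusted p = 0.0244) on the log2 scale. Without TMM factors, Hk1 rose at D4 and neither Hk1 nor Hk2 passed the test at D7.

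The isomerase and the phosphofructokinases differed in size. Pfkm (chr7:139685573-139722132), the phosphofructokinase subunit named after muscle, measured 199.6 and 156 CPM in control, 34.3 and 31.9 at D4, and 67.2 and 58 at D7. It was downregulated 5.37-fold at D4 (log2 fold change -2.43, SE 0.15, adjusted p = 0.000203) and 2.84-fold at D7 (-1.51, SE 0.15, adjusted p = 0.00104). From D4 to D7 it rose 1.89-fold (0.92, SE 0.15, adjusted p = 0.0329), so that the 3 groups stood in the order control, D7, D4 with no overlap.

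The other 2 subunits showed smaller differences. Pfkl, the liver-type subunit, measured 63.6 and 70.3 CPM in control, 61.2 and 57.6 at D4, and 52.2 and 51.8 at D7, and fell at D7 by 0.36 on the log2 scale (SE 0.09, adjusted p = 0.0271). Pfkp, the platelet-type subunit, measured 12.2 and 24.7 CPM in control, 17.9 and 16.7 at D4, and 10.8 and 12.9 at D7, and no difference passed the test (adjusted p = 0.843 at D4 and 0.169 at D7). The D7 log2 fold change of Pfkp was -0.64, and it was -1.06 without control a. Gpi, which turns glucose 6-phosphate into fructose 6-phosphate, went from 285 and 269.7 CPM in control to 207 and 175 at D4 and 178 and 179 at D7. Gpi fell at D4 by 0.54 (adjusted p = 0.00952) and at D7 by 0.64 (adjusted p = 0.00671).

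The bifunctional Pfkfb enzymes make and break fructose 2,6-bisphosphate, the activator of phosphofructokinase. Pfkfb4 (chr8:117737117-117775386) measured 1.7 and 2.11 CPM in control, 7.27 and 10.9 at D4, and 11.9 and 10.04 at D7. It was upregulated 4.78-fold at D4 (log2 fold change 2.26, SE 0.28, adjusted p = 0.00164) and 5.76-fold at D7 (2.53, SE 0.28, adjusted p = 0.00153), with both injured groups above control.

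Its 3 relatives were not DEGs. Pfkfb1 measured 12.7 and 14.7 CPM in control, 4.8 and 2.66 at D4, and 0.704 and 6.88 at D7, where the 2 libraries came from 15 and 139 fragments. Its log2 fold changes were -1.88 (SE 0.85, adjusted p = 0.12) and -1.86 (SE 0.85, adjusted p = 0.136), and the injured libraries lay below the control libraries. Without D7 b the D7 change was -4.27. In a fit of the control and D4 libraries alone, Pfkfb1 passed the threshold at D4 (-1.83, adjusted p = 0.00874), as it did when either D7 library was left out.

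Pfkfb3, the isoform known from proliferating cells, measured 148 and 43.1 CPM in control, 56.6 and 49.9 at D4, and 20.7 and 43.9 at D7. The control libraries spanned the D4 values, and the log2 fold changes of -0.85 and -1.57 did not pass the test (adjusted p = 0.284 and 0.0879). Without control b, Pfkfb3 was a DEG at both days. Pfkfb2, the heart-type isoform, measured 21.2 and 22.3 CPM in control, 14.1 and 16.3 at D4, and 21.6 and 21.3 at D7, and fell at D4 (-0.52, SE 0.12, adjusted p = 0.017).

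In lower glycolysis, from aldolase to pyruvate kinase, 2 of the 10 entries were upregulated at D4 and 1 was downregulated. Pgam1, phosphoglycerate mutase (chr1:261158261-261165808), measured 112 and 125 CPM in control, 274 and 273 at D4, and 159 and 176 at D7. It rose 2.31-fold at D4 (log2 fold change 1.21, SE 0.10, adjusted p = 0.000409), remained above control at D7 (0.50, SE 0.10, adjusted p = 0.0115), and fell between the days by 0.71 (SE 0.10, adjusted p = 0.025).

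Pgk1, phosphoglycerate kinase, an ATP-forming step (chrX:77263359-77279367), measured 110.0 and 125 CPM in control, 262 and 242 at D4, and 135 and 159 at D7. It rose 2.15-fold at D4 (1.10, SE 0.12, adjusted p = 0.00107), was at 0.33 at D7 (adjusted p = 0.0797), and fell from D4 to D7 by 0.78 (SE 0.12, adjusted p = 0.0309). Without TMM factors Pgk1 also rose at D7 against control. Eno1, the ubiquitous enolase, was also highest at D4, with overlapping control and D7 libraries, and measured 156 and 165 CPM in control, 261 and 233 at D4, and 137 and 164 at D7. Its rise at D4 was 0.62 (SE 0.12, adjusted p = 0.00842) and its fall from D4 to D7 was 0.72 (SE 0.12, adjusted p = 0.0364).

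Pyruvate kinase, the last step, was listed at 2 loci under the symbol Pkm. The chromosome 8 entry (chr8:64481172-64502722) measured 124 and 158 CPM in control, 195 and 192 at D4, and 127 and 109 at D7. It rose at D4 (0.46, SE 0.14, adjusted p = 0.0401) and fell from D4 to D7 (-0.71, SE 0.14, adjusted p = 0.0486). The shorter chromosome 20 entry (chr20:18058245-18060661) gave 0.65 (adjusted p = 0.00218) and -0.91 (adjusted p = 0.0117) for these differences. The summed counts of both rose at D4 by 0.56 (SE 0.11, adjusted p = 0.00851).

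Aldolase C moved the other way. Aldoc (chr10:65586504-65590126), the aldolase known from brain, measured 67.1 and 52.3 CPM in control, 7.14 and 7.31 at D4, and 23.1 and 13 at D7. It was downregulated 8.26-fold at D4 (log2 fold change -3.05, SE 0.29, adjusted p = 0.000636) and 3.31-fold at D7 (-1.73, SE 0.28, adjusted p = 0.00529). The D7 libraries lay between the D4 and the control libraries, and the D7 against D4 difference of 1.32 had an adjusted p of 0.0598. That difference was called with DESeq2 (1.28, adjusted p = 0.000649), with no low-count filter (1.31, adjusted p = 0.0409) and without D7 b.

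Aldoa, the widely expressed aldolase, went from 511 and 575 CPM in control to 352 and 318 at D4 and 281 and 348 at D7. It fell at D4 by 0.70 (SE 0.14, adjusted p = 0.00927) and at D7 by 0.79 (SE 0.14, adjusted p = 0.00744). Eno2, the neuron-specific enolase, measured 37.5 and 39.3 CPM in control, 18.6 and 20.7 at D4, and 21.7 and 19.4 at D7, with log2 fold changes of -0.97 (adjusted p = 0.00149) and -0.90 (adjusted p = 0.00268). The injured libraries of both genes lay below their control libraries.

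Gapdh, the oxidizing step of glycolysis, measured 189.5 and 181 CPM in control, 155 and 164 at D4, and 95.3 and 99.1 at D7. It fell at D7 by 0.93 against control (SE 0.09, adjusted p = 0.000861) and by 0.71 against D4 (SE 0.09, adjusted p = 0.0174), whereas the D4 difference of -0.22 did not pass the test (adjusted p = 0.0839) and was 0.07 without TMM factors. Gapdh is often used as a reference gene, and its level here differed between the groups. Tpi1, triosephosphate isomerase, measured 36.3 and 27.4 CPM in control, 30.3 and 31.6 at D4, and 21.1 and 23.7 at D7, and fell at D7 (-0.51, SE 0.16, adjusted p = 0.049).

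Fragments of several members may have been shared with near-identical genes, since 13 such entries were listed for Gapdh, Tpi1, Eno1, Eno2, Pgk1, Pkm and Hk1. These copies held 66.1% to 71% of the summed Gapdh fragments of a library, 81.9% to 84.9% for Tpi1, 73.8% to 78.9% for Eno2, 49.1% to 55% for Pkm and 19.8% to 24.5% for Eno1. For Pgk1 and Hk1 the copies held at most 0.559% and 1.02%, and the Pgk1 rise at D4 was 1.10 with its copy added as well. With the copies added, Eno2 passed the 2-fold threshold at D4 (-1.19, SE 0.13, adjusted p = 0.000915) and at D7 (-1.11, SE 0.13, adjusted p = 0.00163). Summed Gapdh stood at -0.09 at D4 (adjusted p = 0.471) and fell by 0.85 at D7 (adjusted p = 0.00158), and summed Eno1 rose by 0.68 at D4 (adjusted p = 0.00497). The values of Gapdh, Tpi1, Eno1, Eno2 and Pkm are therefore uncertain as levels of a single locus.

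The lactate dehydrogenases moved in opposite directions. Ldha (chr1:102900286-102909707), the subunit known for turning pyruvate into lactate, measured 187 and 175 CPM in control, 305 and 289 at D4, and 192 and 203 at D7. It rose at D4 by 1.64-fold (log2 fold change 0.72, SE 0.09, adjusted p = 0.00173), was at 0.13 at D7 (adjusted p = 0.306), and fell between the days by 0.59 (SE 0.09, adjusted p = 0.0301). Without TMM factors the D4 rise of Ldha was 1.01 and passed the 2-fold threshold, and Ldha also rose at D7 against control.

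Ldhb (chr4:176701983-176720012), the subunit of oxidative tissue, measured 196 and 146 CPM in control, 64.5 and 74.2 at D4, and 110.1 and 97.3 at D7. It was downregulated 2.47-fold at D4 (-1.30, SE 0.17, adjusted p = 0.00174) and fell at D7 by 0.72 (SE 0.16, adjusted p = 0.0175). The D7 libraries lay between the other groups, and D7 against D4 was 0.58 (adjusted p = 0.101).

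The 250 bases before the start sites of 4 members are shown because Pgam1 and Ldha rose together at D4 and fell again by D7, and because Aldoc and Pfkm had the largest falls of the enzymes at D4. They are the RefSeq sequences of GRCr8, written 5′ to 3′ in the direction of the gene, with matches to ACGTG or GCGTG on either strand in capitals. The final 2 capitals of Ldha open a match that runs past the start site.
Pgam1 (chr1:250672902-250673151, plus strand): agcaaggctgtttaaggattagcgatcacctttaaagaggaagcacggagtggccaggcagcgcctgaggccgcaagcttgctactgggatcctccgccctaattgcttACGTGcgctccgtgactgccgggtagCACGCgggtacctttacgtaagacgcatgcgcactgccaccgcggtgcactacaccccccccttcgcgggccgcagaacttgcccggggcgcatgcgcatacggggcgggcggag
Ldha (chr1:106507842-106508091, plus strand): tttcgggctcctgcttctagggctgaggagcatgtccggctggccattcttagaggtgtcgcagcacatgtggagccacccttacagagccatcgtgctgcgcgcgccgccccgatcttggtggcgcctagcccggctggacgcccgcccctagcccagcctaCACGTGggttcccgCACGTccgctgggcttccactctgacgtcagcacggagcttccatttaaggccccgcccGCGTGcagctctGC
Aldoc (chr10:63715294-63715543, plus strand): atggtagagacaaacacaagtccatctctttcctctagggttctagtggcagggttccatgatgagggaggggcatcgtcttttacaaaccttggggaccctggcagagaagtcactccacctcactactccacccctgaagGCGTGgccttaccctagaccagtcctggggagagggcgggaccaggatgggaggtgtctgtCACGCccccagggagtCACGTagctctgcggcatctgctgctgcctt
Pfkm (chr7:131113849-131114098, plus strand): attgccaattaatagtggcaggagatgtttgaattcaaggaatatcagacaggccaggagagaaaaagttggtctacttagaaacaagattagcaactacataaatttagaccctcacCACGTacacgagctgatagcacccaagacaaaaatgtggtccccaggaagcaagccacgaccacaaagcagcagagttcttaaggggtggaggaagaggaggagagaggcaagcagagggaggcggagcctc

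ACGTG and GCGTG are the cores of the element known to bind hypoxia-inducible factors, and ACGTG is also part of the E-box CACGTG. In windows of 300 bases around the start site, which add 50 bases downstream, 23 of 34 promoters of 30 members held either core (67.6%), and 41.6% of all 33469 promoters did. ACGTG was in 18 (52.9%, against 19.3% of all), GCGTG in 14 (41.2%, against 29.7%), and CACGTG in 4 (11.8%, against 6.42%). Ldha held 6 matches, Aldoc 3, Pgam1 2 and Pfkm 1, and 8 genes held 0, namely Hk2, Pfkfb1, Pfkfb2, Pfkfb4, Tpi1, Pkm, Slc16a3 and Pdk4. The genes with matches thus included members that rose and members that fell, and a match describes the letters alone. For Pgk1, Slc2a3 and Slc2a4 no promoter sequence was used here.

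Monocarboxylate transporters carry lactate, pyruvate and ketone bodies across the cell membrane. Slc16a1 (MCT1, the broadly expressed carrier; chr2:207108552-207128554) measured 225 and 172 CPM in control, 115 and 105 at D4, and 75 and 92.4 at D7. It fell at D4 by 0.85 on the log2 scale (SE 0.17, adjusted p = 0.00866) and was downregulated 2.37-fold at D7 (-1.24, SE 0.17, adjusted p = 0.00289), which was -0.95 without TMM factors (adjusted p = 0.00543). The injured libraries lay below both control libraries.

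Slc16a3 (MCT4, the carrier associated with lactate export; chr10:110138586-110148358) was upregulated at D4 from a low level. It measured 0.618 and 1.57 CPM in control, from 12 and 26 fragments, then 3.82 and 4.54 at D4, and 2.63 and 2.42 at D7. The D4 rise was 3.86-fold (log2 fold change 1.95, SE 0.44, adjusted p = 0.0143) and the D7 difference was 1.22 (SE 0.45, adjusted p = 0.0758). Without TMM factors the D7 difference was 1.51 and passed both thresholds (adjusted p = 0.0359), and it was 2.02 without control b. The D4 call was lost without D4 a (adjusted p = 0.0564) or without D4 b (0.0806). Slc16a7 (MCT2, the high-affinity carrier of neurons) measured 8.29 and 12.4 CPM in control, 9.15 and 10.05 at D4, and 9.44 and 13.3 at D7, and the groups overlapped (adjusted p = 0.773 and 0.696).

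The pyruvate dehydrogenase kinases inactivate pyruvate dehydrogenase, and their 4 genes each showed a different pattern. Pdk1 (chr3:58530870-58558027) measured 36.4 and 47.3 CPM in control, 17.9 and 16.9 at D4, and 10.8 and 19.9 at D7. It was downregulated 2.4-fold at D4 (log2 fold change -1.26, SE 0.29, adjusted p = 0.0154) and 2.73-fold at D7 (-1.45, SE 0.29, adjusted p = 0.0121). The D4 call was lost without control b (adjusted p = 0.0605), D4 a (0.0789) or D4 b (0.0928), and the D4 change was -0.98 without TMM factors.

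Pdk4 (chr4:30546664-30556814), the kinase known to respond to fasting and fatty acids, measured 72.1 and 25.7 CPM in control, 104 and 80.1 at D4, and 17 and 19.7 at D7. It was 5.01-fold lower at D7 than at D4 (log2 fold change -2.33, SE 0.46, adjusted p = 0.0493). The control libraries lay between the injured groups, and against them the differences of 0.91 at D4 (SE 0.44, adjusted p = 0.142) and -1.42 at D7 (SE 0.45, adjusted p = 0.0528) did not pass the test. The D7 difference was called with DESeq2 (-1.43, adjusted p = 0.0021) and with no low-count filter (-1.42, adjusted p = 0.0387). It was -1.98 without control b, and the D4 difference was 1.84 without control a. The D7 against D4 call was lost when any D4 or D7 library was left out, with adjusted p-values of 0.109 to 0.258, and under the replicate block (adjusted p = 0.0603).

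Pdk3 measured 21.2 and 21.2 CPM in control, 26 and 25.8 at D4, and 28.4 and 28.3 at D7, and rose at D7 (0.42, SE 0.10, adjusted p = 0.0193), with 0.29 at D4 (adjusted p = 0.0542). Pdk2 measured 24.9 and 23.6 CPM in control, 21.8 and 23.8 at D4, and 25.7 and 21.5 at D7, with overlapping groups (adjusted p = 0.607 and 0.834). Pdha1, the catalytic subunit that these kinases act on, had no entry under its symbol. An entry described as similar to it, LOC100365902 on chromosome X, was not a member and held 5861 and 6543 fragments in control, 3021 and 2889 at D4, and 2337 and 2625 at D7. It was downregulated at D4 (log2 fold change -1.59, SE 0.17, adjusted p = 0.000897) and at D7 (-1.54, SE 0.17, adjusted p = 0.0014). Pdha1l1 on chromosome 16, another similar entry outside the set, fell at D4 (-0.96, adjusted p = 0.00204) and was downregulated at D7 (-1.03, adjusted p = 0.00225).

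**Figure D2:**
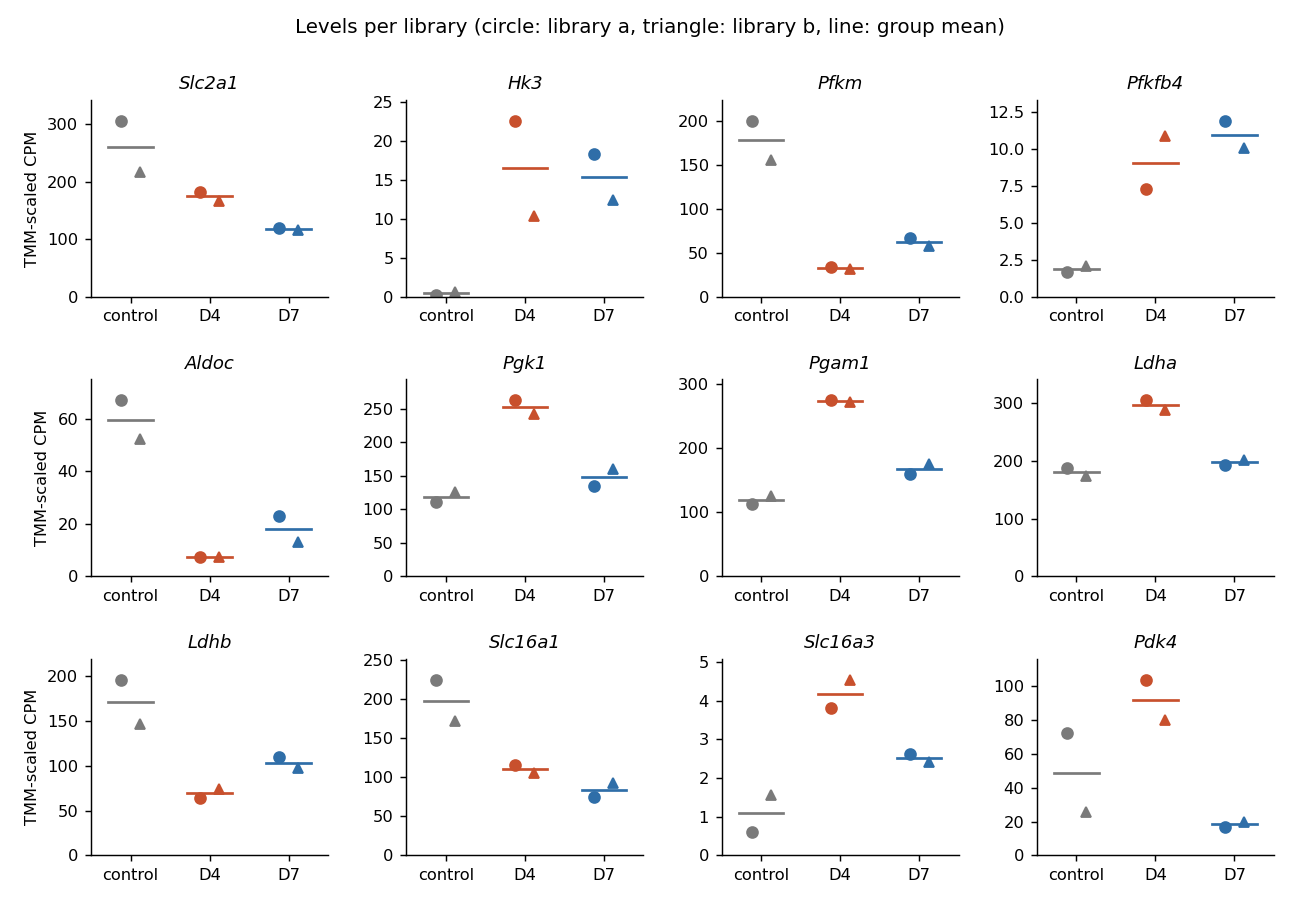
TMM-scaled CPM of 12 members in each of the 6 libraries, with circles for library a, triangles for library b, a line at the mean of each group and vertical axes from 0. Pgk1, Pgam1 and Ldha were highest at D4, Pfkm, Aldoc and Ldhb were lowest at D4 with D7 between, and Slc2a1 and Slc16a1 were lowest at D7.

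Isoenzyme shares compare members of a family within a library and do not depend on the scaling between libraries. They were computed from FPKM, which divides the fragments of a gene by its length and by the library total, because levels of different genes compare only per length. Ldha made up 44.4% and 50% of the lactate dehydrogenase FPKM in control, 79.8% and 76.5% at D4, and 59.4% and 63.5% at D7. The 4 injured libraries lay above both control libraries, by 22.7 percentage points on average, and Ldhb held the remainder.

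Pfkm made up 67.9% and 56.4% of phosphofructokinase FPKM in control, 25.6% and 25.4% at D4, and 46.1% and 41.7% at D7. In its place Pfkl went from 26% and 30.5% to 54.8% and 55.1% at D4, so that Pfkl held the larger share at D4 and Pfkm in control. Hk3 went from 0.109% and 0.267% of hexokinase FPKM to 8.81% and 4.53% at D4 and 9.72% and 6.99% at D7, while Hk1 held 65.9% to 78.4% in every library.

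Eno2 went from 16.9% and 16.7% of enolase FPKM to 5.66% and 6.96% at D4 and 11.8% and 9.07% at D7. With the FPKM of the near-identical copies added to both enolases, these Eno2 shares were 38.7% and 40.7% in control, 13.9% and 16.4% at D4, and 27.4% and 21.1% at D7, with the same order of groups. Aldoc went from 6.9% and 4.88% of aldolase FPKM to 1.13% and 1.28% at D4 and 4.43% and 2.07% at D7. Slc16a1 held 89.4% or more of the monocarboxylate transporter FPKM in each library, and Slc16a3 went from 0.311% and 1% to 3.54% and 4.51% at D4 and 3.64% and 2.72% at D7. In each of these families the injured libraries did not overlap the control libraries for the members named, except for Hk1.

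Slc2a4 made up 16.1% and 28.9% of glucose transporter FPKM in control, 6.68% and 4.87% at D4, and 4.14% and 20.4% at D7, where D7 b lay among the control libraries. Pdk4 made up 47.8% and 22.6% of the kinases in control, 63.9% and 57.1% at D4, and 22.7% and 24.3% at D7. With 4 injured against 2 control libraries an exact two-sided permutation test cannot give less than 0.133, so that none of the 22 shares tested could pass 0.05 before or after adjustment. That value was reached for Ldha, Pfkm, Hk3, Aldoc, Eno2 and Slc16a3, and the p-values were 0.267 for Slc2a4 and 0.533 for Pdk4. It was also reached for Slc2a3, Hk2, Pfkl, Aldoa, Eno1, Ldhb, Slc16a1 and Slc16a7, so it was not particular to the genes named first. Slc2a3 reached it on 0 to 2 fragments in a library. The shares of Aldoa, Eno1 and Ldhb mirror those of Aldoc, Eno2 and Ldha.

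**Figure D3:**
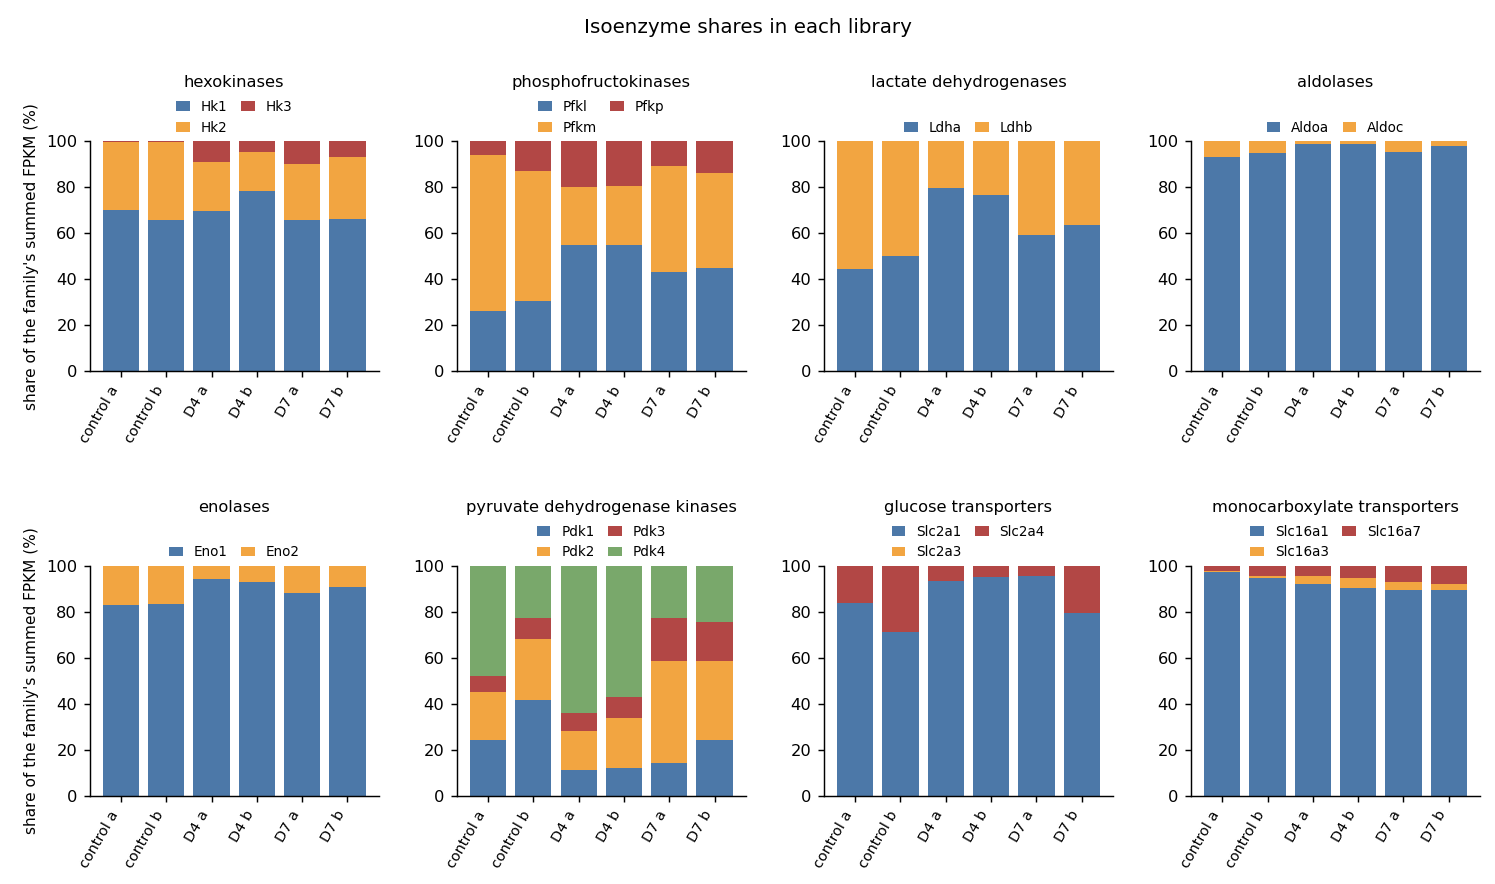
Share of the summed FPKM of 8 enzyme and transporter families taken by each member, in percent, as stacked bars for each of the 6 libraries. Ldha grew from 44.4% and 50% in control to 79.8% and 76.5% at D4, and Pfkm shrank from 67.9% and 56.4% to 25.6% and 25.4%.

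By the FPKM of the members' own entries, Aldoa stood highest in control (273.7 and 315.9), followed by Gapdh (163.3 and 159.8) and Gpi (122.3 and 118.4). Ldhb (126.4 and 96.6) and Ldha (100.9 and 96.5) came next, and the ranges of Gpi and Ldhb overlapped, as did those of Ldhb and Ldha. At D4 the order was Aldoa (233 and 210.8), Ldha (203.3 and 192.9), Gapdh (164.6 and 174.9) and Pgam1 (167.9 and 167.2), and Gapdh and Pgam1 did not differ beyond their spread. At D7 Aldoa (185.4 and 233.2) was followed by Ldha (128 and 136.6). The place of Gapdh depends on its copies: with their FPKM added it stood at 457 and 416.8 in control, 506.7 and 502.7 at D4, and 295.6 and 305 at D7, above Aldoa in each group. The places of Eno1 and Pkm depend on copies too. With these added, Eno1 stood at 206.8 and 189.2 at D4 and Pkm at 199.7 and 194. Both then overlapped Ldha and lay above Pgam1. Hk3 (0.0618 and 0.148), Slc16a3 (0.249 and 0.646) and Pfkfb4 (0.513 and 0.653) were the lowest of the tested entries in control.

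Marker genes of the cell types in the nerve moved with several members. The 7 myelinating Schwann cell markers used, Mbp and Pmp22 among them, were present in control and summed to 42035 and 27839 CPM, then to 1725 and 1749.99 at D4 and to 7205 and 4688 at D7. All 7 were downregulated at D4, 4 of them at D7, and 5 were upregulated from D4 to D7. Pfkm, Aldoc and Ldhb had the same order of groups, with control highest and D4 lowest. The part of this marker change in these results was not tested.

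The 9 macrophage markers summed to 598 and 560 CPM in control, 2313 and 2252 at D4, and 1589 and 1826 at D7, with 9 upregulated at D4 and 8 at D7. The 6 cell cycle genes summed to 73.2 and 113 CPM in control, 988 and 1130 at D4, and 657 and 703 at D7, with 6 upregulated at both days. Of the 7 repair Schwann cell markers 4 were upregulated at both days, and their sum went from 2614 and 2172 CPM to 3784 and 3994 at D4 and 3201 and 2729 at D7. Hk3, Pfkfb4, Slc16a3, Pgk1, Pgam1 and Ldha were also above control at D4, and what part these cell types had in it was not tested.

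Neutrophil markers were low in each group. S100a8 and S100a9 held 0 to 10 fragments in a library and Elane 0 in each, and the 6 markers summed to 52.6 and 56.7 CPM in control and to 18 to 30.9 in the injured nerves. Of 3 tested, Csf3r, which other myeloid cells also express, was upregulated at both days, and Cxcr2 was downregulated at D4. Their part in the rise of Hk3 was not tested.

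Adipocyte and skeletal muscle markers varied between rats of 1 group. The 9 adipocyte markers summed to 1882 and 1550 CPM in control, 654 and 325 at D4, and 67 and 747 at D7, with Adipoq at 49 fragments in D7 a and 3730 in D7 b and Pnpla2 at 0 in each library. Of 8 tested, 0 were DEGs at D4 by edgeR's or DESeq2's test (1 with an unadjusted p under 0.05 by edgeR) and Lipe was the 1 downregulated at D7, a call lost without TMM factors. Slc2a4 and Pfkfb1 also had both control libraries highest and D7 a lowest, with the injured libraries in the same order. Control b stood above control a for these genes and below it for the adipocyte sum. The 10 skeletal muscle markers with an entry summed to 21.1 and 54.2 CPM in control, 92.7 and 7.35 at D4, and 8.4 and 23.5 at D7, and Myh7 was the 1 of 8 tested that was downregulated. Endothelial markers summed to 909 and 1577 CPM in control, 637 and 560 at D4, and 324 and 553 at D7, where 3 of 6 were downregulated at D4 and 5 at D7, with 0 and 3 called by edgeR without TMM factors (3 and 5 with an unadjusted p under 0.05). Their group means stood in the order of those of Slc2a1, an order that Slc16a1, Gapdh, Gpi and Aldoa also had. Within control, library a was the lower for the endothelial sum and the higher for Slc2a1. The part of these cell types in the results for Slc2a4, Pfkfb1 and Slc2a1 was not tested.

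**Figure D4:**
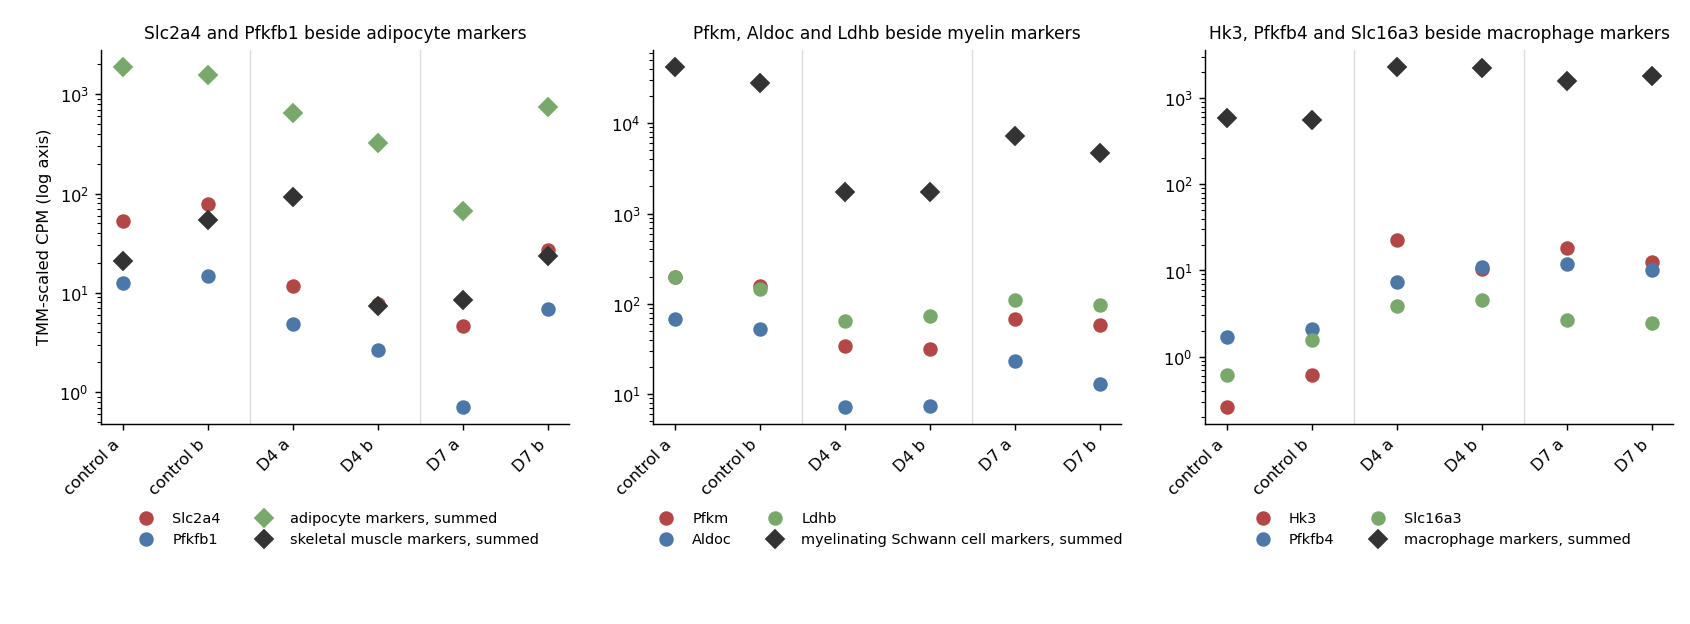
TMM-scaled CPM on log axes in the 6 libraries, with members as circles and summed marker lists as diamonds. Slc2a4 and Pfkfb1 were lowest in D7 a, where the adipocyte markers summed to 67, Pfkm, Aldoc and Ldhb stood lowest at D4 beside the myelinating Schwann cell markers, and Hk3, Pfkfb4 and Slc16a3 stood higher in the injured libraries beside the macrophage markers.

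Neighbouring pathways were read from 10 lists of 88 genes, of which 75 were tested. At D4, 5 were upregulated and 13 downregulated, and at D7, 2 and 12, where all genes gave 11.2% and 10.7% at D4 and 9.83% and 9.02% at D7. Without TMM factors D4 gave 10 upregulated genes against 7 downregulated, and D7 gave 4 against 7.

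Of the 9 genes tested that feed pyruvate into the mitochondria, 5 were downregulated at D4 and 3 at D7, with a median log2 fold change of -1.01 and -0.80 over the 9. Pdp1, another phosphatase of the complex, and Pdpr, its regulatory subunit, passed the test at neither day. The 5 at D4 were Mpc1 and Mpc2, the mitochondrial pyruvate carrier (-1.14, adjusted p = 0.00213, and -1.35, adjusted p = 0.00665, at D4), Pdhb and Dlat, subunits of pyruvate dehydrogenase (-1.22, adjusted p = 0.0214, and -1.01, adjusted p = 0.0145), and Pdp2, the phosphatase that reactivates it (-1.44, adjusted p = 0.00316). Mpc1, Pdhb and Pdp2 were the 3 at D7, and Mpc1, Dlat, Pdp1 and Pdpr were named after their values were seen. Without TMM factors edgeR called 2 of the 9 at D4 and 0 at D7, where 3 had an unadjusted p under 0.05, and DESeq2 called 4 at each day. Among citric acid cycle genes 1 of 11 was downregulated at D4, Sucla2 (-1.06, adjusted p = 0.000822), a call lost without TMM factors.

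The partners of lactate transport moved both ways. Emb, embigin, a membrane partner of monocarboxylate transporters, went from 2.01 and 1.57 CPM in control to 23.3 and 31.1 at D4 and 14.4 and 15.6 at D7 (log2 fold change 3.92, SE 0.22, adjusted p = 0.000164 at D4). Hcar1, the lactate receptor known from fat cells, went from 13.4 and 8.2 CPM to 3.61 and 3.03 at D4 and 1.13 and 2.23 at D7 (-1.71, adjusted p = 0.014, and -2.69, adjusted p = 0.00438).

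The branches off glycolysis each gave 1 downregulated gene at each day. These were Tkt, transketolase of the pentose phosphate pathway (1 of 6; -1.37 and -1.32), Pygl, the liver glycogen phosphorylase (1 of 9; -1.74 and -1.43), and Pc, pyruvate carboxylase of gluconeogenesis (1 of 4; -1.74 and -1.76). The D7 libraries differed widely for Pygl (25.1 and 57.3 CPM, SE 0.36, adjusted p = 0.0249) and Pc (75.6 and 216 CPM, SE 0.45, adjusted p = 0.0259). Both were lowest in D7 a, as was the adipocyte marker sum, and the part of adipocytes in these results was not tested. Of the 4 other glycolytic enzymes tested, Bpgm, bisphosphoglycerate mutase, was upregulated at D7 (1.42, SE 0.12, adjusted p = 0.000676). Of the 7 other glucose transporters tested, Slc2a5, a fructose transporter, was upregulated at D4 (1.25, SE 0.26, adjusted p = 0.0103), and 3 were without TMM factors.

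Of the 13 regulators tested, 1 was upregulated at D4 and 3 were downregulated at D7. Mlxip, a glucose-sensing transcription factor named after its values were seen, was the 1 at D4 (1.09, SE 0.09, adjusted p = 0.000336). Epas1, a hypoxia-inducible factor subunit of endothelium, measured 644 and 828 CPM in control, 477 and 438 at D4, and 256 and 280 at D7 (-1.46, adjusted p = 0.00107 at D7). Ppargc1a, a coactivator of mitochondrial genes (-1.13, adjusted p = 0.00899), and Egln3, a prolyl hydroxylase of hypoxia-inducible factors (-1.31, adjusted p = 0.0499), were the others at D7. Without TMM factors these last 2 were not called (-0.83, adjusted p = 0.0214, and -1.02, adjusted p = 0.0921), and Hif1a, the oxygen-regulated subunit of hypoxia-inducible factor 1, was upregulated at D4 (1.25, adjusted p = 0.00104) and was named after its values were seen.

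Of 8 hypoxia-responsive genes, D4 had 2 upregulated and 3 downregulated, and D7 had 2 downregulated. Adm, the vasodilator adrenomedullin, rose at D4 (1.21, adjusted p = 0.00594) together with Car9, a carbonic anhydrase (1.90, adjusted p = 0.0319). Ndrg1, a gene needed by myelinating Schwann cells, fell at both days (-2.42, adjusted p = 0.000269, and -2.28, adjusted p = 0.000524), as did Bnip3, a mitophagy receptor (-1.28, adjusted p = 0.015, and -1.49, adjusted p = 0.0111). P4ha1, a collagen prolyl hydroxylase, was downregulated at D4 (-1.18, adjusted p = 0.00171), and it and Car9 were named after their values were seen. Without TMM factors Bnip3 (-0.99, adjusted p = 0.0321) and P4ha1 (-0.90, adjusted p = 0.00508) were under 2-fold at D4, which left 1 downregulated, and Car9 was upregulated at D7 too (1.71, adjusted p = 0.0428).

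**Figure D5:**
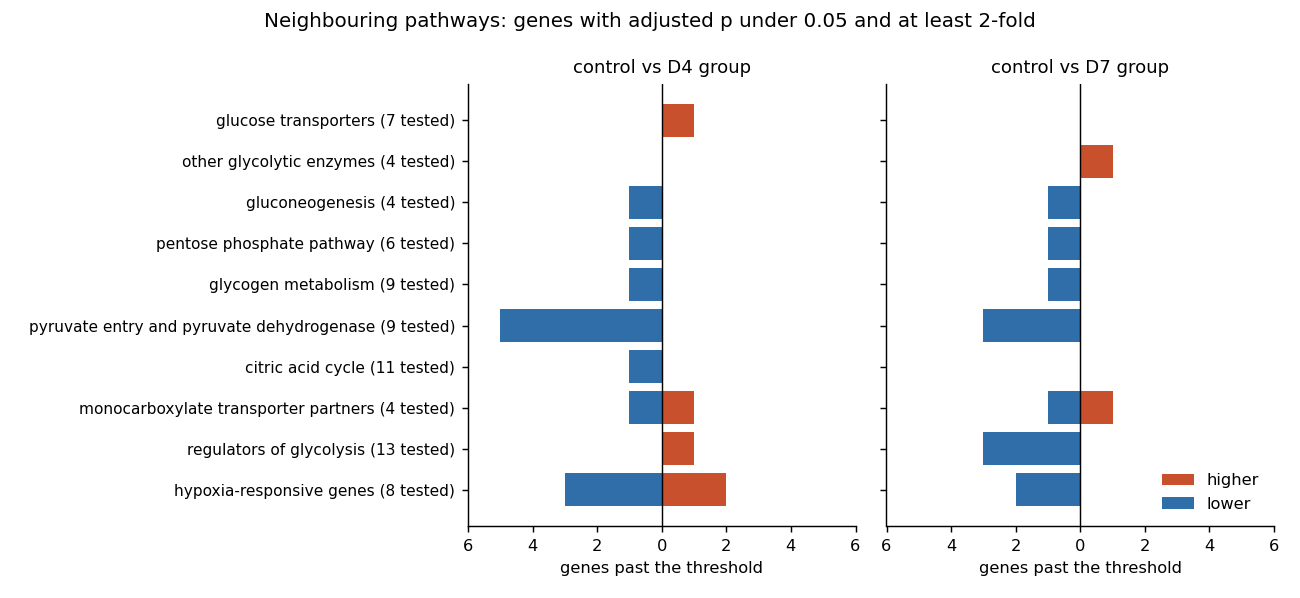
Number of genes upregulated (right) and downregulated (left) in each of 10 pathway lists, for the control vs D4 group and the control vs D7 group, with the number tested beside each name. Pyruvate entry and pyruvate dehydrogenase had the most downregulated genes at D4, 5 of 9.

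At or near the members lay 51 lncRNA transcripts of 24 entries, with 22 inside a gene span, 6 overlapping one and 23 within 10 kb. Of these 32 were tested, and 1 was upregulated and 3 downregulated at D4 (10.1% of all lncRNA transcripts tested were DElncRNAs), and 1 was upregulated at D7 (5.79% of all). NONRATT026269.2, inside Pfkm, held 67 and 56 fragments in control, 25 and 17 at D4, and 32 and 28 at D7 (log2 fold change -1.69 at D4, SE 0.33, adjusted p = 0.0342), and thus had the order of groups that Pfkm had. No source used here gives a strand setting of the counting, so that fragments of the lncRNA and of the gene around it cannot be told apart.

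The other 3 lay at Hk2, Pfkfb2 and Pdk3. NONRATT021518.2, overlapping Hk2, held 1 and 1 fragments in control, 26 and 18 at D4, and 42 and 13 at D7, and was upregulated at both days (adjusted p = 0.0432 and 0.0465), where no fold is given because control was under the floor of 3 fragments. NONRATT008182.2, near Pfkfb2, went from 255 and 233 fragments to 128 and 141 at D4 (-1.02, adjusted p = 0.0232), and ENSRNOT00000076835, near Pdk3, from 30 and 26 to 8 and 8 (-1.95, adjusted p = 0.0236) with 29 and 27 at D7. These 4 calls at D4 were lost when any control or D4 library was left out. NONRATT021220.2, next to Pdk4 and not a DElncRNA, held 1112 and 375 fragments in control, 1807 and 1378 at D4, and 225 and 320 at D7, and it was named after its values were seen, because its counts stood in the same order over the 6 libraries as those of Pdk4.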

How the data were processed

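RNA of 6 rat sciatic nerves, 2 per group, was sequenced after removal of ribosomal RNA. According to the study's methods and the submitters' processing notes, the authors mapped reads to Rnor_6.0 with HISAT2 2.0.4, assembled transcripts with StringTie 1.3.0 and GffCompare, and used edgeR. The authors deposited whole-number fragment counts per gene and per lncRNA transcript, and FPKM values. The deposited FPKM scale with the summed gene counts of a library and hold no TMM factor, so counts were used for the tests and FPKM for shares and levels between genes. No strand setting of the counting is given in the sources used here. Standard errors and p-values rest on the spread between 2 rats per group, estimated over the 3 groups together where all 6 libraries were fitted.

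Counts were filtered with filterByExpr, scaled by TMM factors and fitted with edgeR 4.0.16 (glmQLFit, glmQLFTest; R 4.3.3) in 1 model of the 6 libraries, without covariates, for genes and lncRNAs separately. Benjamini-Hochberg adjustment ran over all features tested, and thresholds were an adjusted p of 0.05 and a 2-fold change. Standard errors were taken as the size of the log2 fold change over the root of its F statistic. The procedure was tested on simulated data. Alternatives were DESeq2 1.42.0, no TMM factors, no filter, a minimum of 10 counts in every library, the compared groups alone, the library letter as a block, and leaving out each library, and, added after seeing the data, a crossed block and counts summed with near-identical copies. Deviations of same-lettered libraries correlated at 0.01 (control and D4), 0.19 (control and D7) and -0.13 (D4 and D7), so the letters were not taken to pair rats.

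Members, pathway lists and marker lists (myelinating and repair Schwann cell, skeletal muscle, adipocyte, macrophage, neutrophil, endothelial cell, cell cycle) were chosen with earlier results of these data known. A gene of the myelinating Schwann cell list is not reported here and is left out of its sum and counts. All members are named, together with up to 3 genes of a pathway list (largest change among DEGs with a mean FPKM of at least 1) and lncRNAs at members that were called. Promoters came from RefSeq (GRCr8), a build other than that of the counts, and were matched by symbol.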

Additional observations from a re-analysis of the deposited data

Results flagged for a closer look

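Pdk4 was the 1 entry that passed both thresholds between the injured groups. Aldoc differed by more than 2-fold as well (log2 fold change 1.32), with an adjusted p of 0.0598. For Pdk4 the log2 fold change was -2.33 at D7 against D4 in the test of that difference itself (SE 0.46, adjusted p = 0.0493). Both D7 libraries were below both D4 libraries, and the call was lost when any of the D4 or D7 libraries was left out.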

How the results depend on the processing

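With no fold threshold, 21 entries were called at D4, 18 at D7 and 10 between the days. The count of 10 DEGs at D4 ran from 7 to 12 when single libraries were left out, and that of 7 at D7 from 7 to 10. The libraries that ended calls are named beside Slc2a1, Slc2a4, Slc16a3, Pdk1 and Pdk4. Between the days the count of 1 was 2 with DESeq2 and with no low-count filter, 0 under the replicate block and 0 to 2 with single libraries left out. Under the crossed block, chosen after seeing the data, it was 1, Aldoc in place of Pdk4. The replicate block changed no other call of a member. The median log2 fold change of the entries at D4 (-0.14) was 0.15 without TMM factors, -0.11 with DESeq2, -0.086 in a fit of the compared groups alone, -0.17 with copies summed and -0.21 to -0.10 with single libraries left out. At D7 (-0.57) it was -0.28 without TMM factors, -0.44 with no filter and -0.62 to -0.43 with single libraries left out. The sign differed without TMM factors in 11 member values, none of which had passed the test. By adjusted p alone, Slc2a1, Hk2, Gpi, Pfkfb2 and Aldoa at D4 and Hk1, Hk2, Pfkl, Tpi1 and Ldhb at D7 passed the test with TMM factors and not without them. The reverse held for Hk1 and Pdk3 at D4 and for Pgk1, Ldha and Slc16a3 at D7, which rose without these factors only.

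For lncRNAs at members, the 4 called at D4 became 2 with no filter, 1 under the replicate block and 0 to 3 with single libraries left out. The 1 at D7 became 4 with DESeq2, 0 with no filter, 0 under the replicate block, and 0 to 1 with single libraries left out. The Aldoc share changed by -6.12 percentage points from counts against -3.66 from FPKM. The Pdk4 share averaged 35.2% in control, 60.5% at D4 and 23.5% at D7, so the means of the injured groups lay on either side of control. Over all injured libraries together its mean was 6.77 points above control, which describes neither day. That difference was -5.80 without control b and -0.53 without D4 a, and ran from -5.80 to 19.3 over the libraries left out. The cause of these shifts was not tested. With 2 rats per group, standard errors at D4 were 0.85 on the log2 scale for Pfkfb1 and 0.44 for Slc16a3. Among members with higher control levels they were 0.75 for Slc2a4, 0.59 for Pfkfb3 and 0.44 for Pdk4. The low Pfkfb4 had 0.28, so large errors were not confined to low members.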
